A study of Mus musculus with 6 samples.

Results

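The genes described here make cholesterol and fatty acids in mouse regulatory T cells (Tregs), the CD4 T cells that restrain immune responses and depend on the transcription factor Foxp3. They are 30 of the 55840 genes in the deposited table and were taken by gene name. Of these, 18 are enzymes of the mevalonate and sterol pathway, 4 are regulators of that pathway or carriers of sterol, and 8 make, elongate or desaturate fatty acids. RNA was sequenced from Tregs of spleen and lymph nodes (LNs) with wild-type Foxp3 (WT, 3 libraries) and from Tregs labelled Exon2KO (3 libraries), which the series title names Foxp3∆2. The sample titles call the libraries of a genotype biological replicates. The labels used here do not give the age, sex, strain or sorting markers of the mice, the way the exon was removed, or any agent or allele shared by both groups. They also do not say whether spleen and LN cells were pooled or whether a library came from 1 animal.

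As background, cells build cholesterol from acetyl-CoA through mevalonate and the sterol intermediates, and they build fatty acids from the same precursor through malonyl-CoA. The SREBP transcription factors, encoded by Srebf1 and Srebf2, switch on both sets of genes. When sterols are plentiful, the protein encoded by Insig1 holds the SREBP precursors in the endoplasmic reticulum. In Tregs, products of the mevalonate pathway are known to be needed for suppressive function and proliferation.

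In the deposited table the column names join the genotype with 2, 6 or 20, so that every number is found in 1 WT and 1 Exon2KO library. Libraries are named here by both, as in WT 20. What the numbers stand for is not given in the sources used here. Total counts ran from 17998216 to 21003496, and 3 counts correspond to between 0.141 and 0.169 CPM (counts scaled to a library total of 1000000). Same-numbered libraries deviated from their group means together, with correlations across 14919 genes of 0.33, 0.41 and 0.54. Results are therefore also given from a fit with the number as a block. For each gene the deviations within a group cancel out. An effect shared by the libraries numbered 20 alone would thus raise the correlations for 2 and 6 too. The correlations cannot show that 2 and 6 are matched, and libraries of unlike number were not correlated. In a principal component analysis, both libraries numbered 20 lay apart from the other 4 libraries on the first component (34.5% of the variance). The second component (31.3%) separated the genotypes, with WT between 11.1 and 26.3 and Exon2KO between -32.3 and -7.65. Foxp3 was detected in every library (602 to 783 CPM in WT and 684 to 925 CPM in Exon2KO), and its log2 difference of 0.19 did not pass the test (adjusted p = 0.693, edgeR quasi-likelihood test). A count per gene does not show whether exon 2 was present. The 8 T cell and Treg markers summed to between 3711 and 4379 CPM. Of these, 3 (Ctla4, Ikzf2 and Il2ra) fell in Exon2KO with and without the block, beside 5.79% and 1.58% of all tested genes. Log2 differences were above 0 for 4 of the 8 and below 0 for 4. Cd4 was higher in Exon2KO without overlap, by 0.22, and was not called (adjusted p = 0.315, and 0.0665 with the block, edgeR). B cell markers summed to between 32.1 and 34.0 CPM in WT and between 26.3 and 28.5 CPM in Exon2KO. Most of that sum was Cd79b, with 20.5 to 22.9 CPM in WT and 14.0 to 16.95 CPM in Exon2KO. The other 5 of the 6 had log2 differences above 0 without the block. CD8 T and NK cell markers summed to between 16.9 and 23.9 CPM, and stromal and endothelial markers to between 165 and 225 CPM. Nearly all of that last sum was Pecam1 (163 to 225 CPM), which T cells also express; the other 5 were at most 2.96 CPM, and Col3a1 was at 0 in every library. Of the markers of other cells none was called without the block (edgeR, with 3 at an unadjusted p under 0.05, beside 12.1% of all tested genes). With the block 1 of 6 tested B cell markers (Cd79b) and 1 of 6 tested myeloid markers (Lyz2) fell, beside 5.79% of all tested genes. Pecam1, 1 of 3 tested stromal and endothelial markers, rose, beside 3.93%. No other marker of these cells was called. Some other markers of the same lists did not share these directions, and none of them was called with the block: Col1a1 and Col1a2 had log2 differences of -1.21 and -1.64 (adjusted p = 0.089 and 0.174), Cd68 and Fcgr3 of 0.26 and 0.40 (0.378 and 0.755), and Cd79a, Ms4a1, Pax5 and Blk of 0.15, 0.07, 0.39 and 0.25 (0.745, 0.95, 0.629 and 0.763). The 7 adipocyte markers, which would mark a tissue rich in lipid synthesis, summed to at most 0.61 CPM, and 1 of them was at 0 in every library.

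Levels of different genes were compared only per gene length, as CPM per kilobase (kb) of the listed gene length. Acly, the enzyme that makes cytosolic acetyl-CoA from citrate, was the most abundant of the 30, with 51.0 ± 2.02 CPM per kb in WT and 56.7 ± 3.13 CPM per kb in Exon2KO (SD, n = 3 each). Srebf2, the factor that mainly drives sterol genes, followed at 39.2 ± 6.04 and 44.5 ± 4.92 CPM per kb. Scd2, a desaturase that puts a double bond into saturated fatty acids, stood at 33.3 ± 3.15 and 27.7 ± 2.02 CPM per kb. These were followed by Srebf1, the factor that mainly drives fatty acid genes (25.0 ± 1.08 and 27.3 ± 2.96 CPM per kb), and the fatty acid synthase gene Fasn (22.7 ± 2.36 and 22.2 ± 1.298 CPM per kb). Across different libraries the range of each of these 5 genes overlapped that of the next. Single libraries ran from 48.7 to 59.97 CPM per kb for Acly, 33.2 to 49.4 for Srebf2, 25.4 to 36.5 for Scd2, 23.8 to 30.1 for Srebf1 and 19.98 to 24.2 for Fasn. Within each library the order held, with 1 exception. Srebf1 was above Scd2 in Exon2KO 2 (27.5 against 25.4 CPM per kb) and in Exon2KO 20 (30.1 against 29.05).

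The 2 related desaturase genes on chromosome 19 differed widely in level. Scd2 had a mean of 30.5 CPM per kb over all libraries and Scd1 had 0.194 CPM per kb. The Δ6-desaturase gene Fads2 was the lowest of the 30 at 0.126 CPM per kb. Its counts were 0, 5 and 19 in WT 2, 6 and 20, and those of the same-numbered Exon2KO libraries were 6, 6 and 12. It did not pass the filter on low counts and was not tested, so 29 of the 30 genes were. Among sterol enzymes the highest levels per length were those of Ebp, a sterol isomerase (18.2 CPM per kb), and Mvd, the last enzyme before isopentenyl diphosphate (16.5 CPM per kb). The lowest was that of Fdps, farnesyl diphosphate synthase (0.377 CPM per kb).

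**Figure D1:**
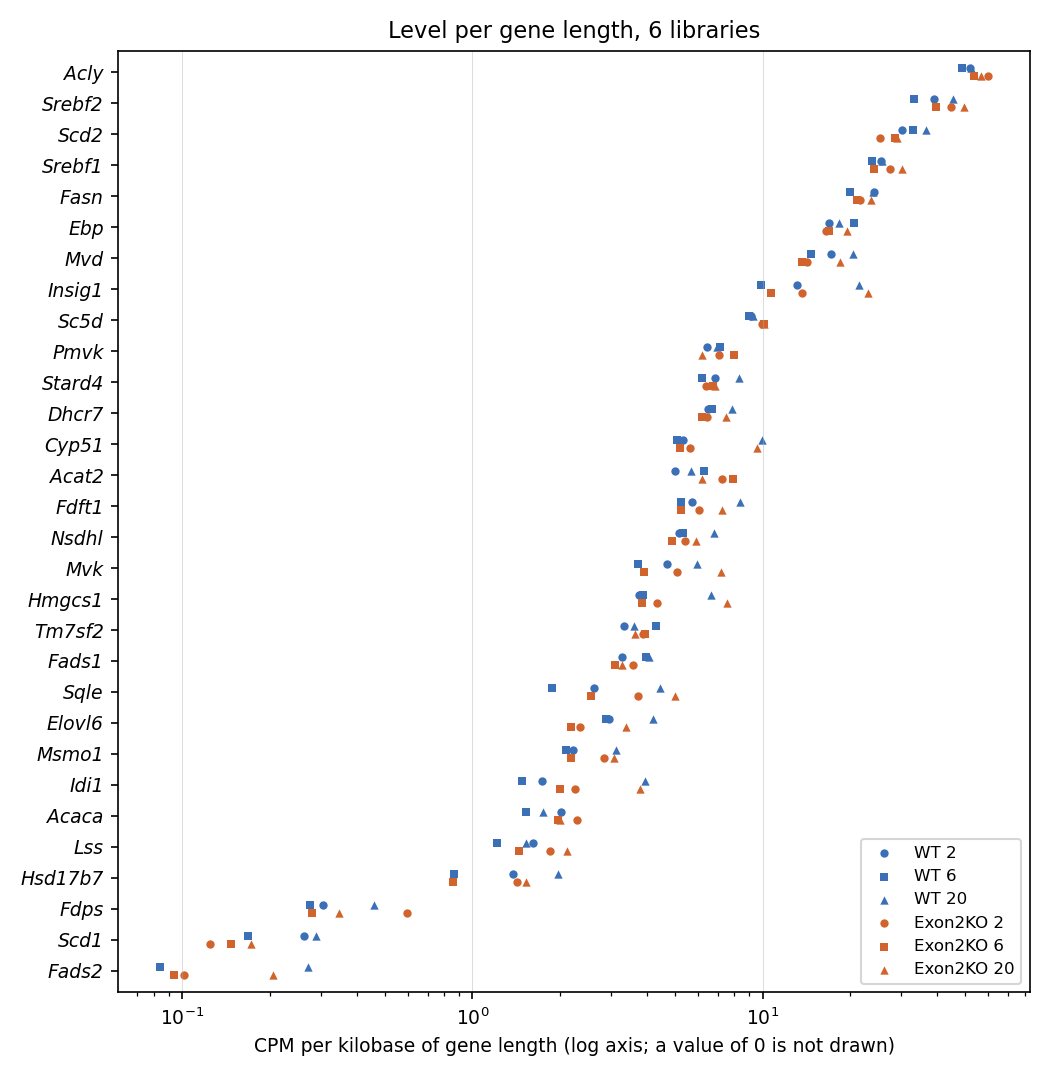
CPM per kb of gene length (log axis) of the 30 genes, ordered by their mean over the 6 libraries; blue marks WT and orange Exon2KO, with a marker shape for each column number, and each point is 1 library. Acly, Srebf2, Scd2, Srebf1 and Fasn lead in both genotypes, and Fdps, Scd1 and Fads2 lie below 1 CPM per kb.

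The comparison of genotypes asks how loss of exon 2 goes with the RNA levels of these genes. In the fit of genotype alone, none of the 29 tested genes passed an adjusted p under 0.05 (edgeR quasi-likelihood test), where 2.33% of all 14919 tested genes did (348 genes; 0.757% higher and 1.58% lower in Exon2KO). DESeq2 and limma-voom also called 0 of them, beside 4.75% and 2.2% of all genes that each tested. At an unadjusted p under 0.05 there were 2, Acat2 (higher in Exon2KO) and Scd2 (lower), which is 2 of 29 against 12.1% of all tested genes. The lowest adjusted p was 0.232, for Scd2. The median log2 difference (Exon2KO minus WT) was 0.05 over the 29 genes and 0.01 over all tested genes, with 16 genes above 0 and 13 below. The median of these genes was 0.04 with the column number as a block. It was -0.02 without WT 2 and -0.03 without WT 6, where 30 genes were tested. Differences ran from -0.70 for Scd1 to 0.33 for Acat2.

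The fit sets bounds on how large a difference could have been. For 24 of the 29 genes the 95% interval of the log2 difference lay within -1 and 1, a fold of 2 either way, as it did for 70.8% of all tested genes. Sqle, Idi1, Fdps, Insig1 and Scd1 had wider intervals. With the column number as a block, 28 of the 29 intervals lay within these bounds, all but that of Scd1. In that fit 2 of 29 genes were called, Scd2 and Elovl6, and both fell in Exon2KO. The background in the blocked fit was 9.72% of all tested genes (5.79% lower and 3.93% higher), a share near that of these genes. At an unadjusted p under 0.05 the blocked fit had 8 of 29, against 21.5% of all tested genes.

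**Figure D2:**
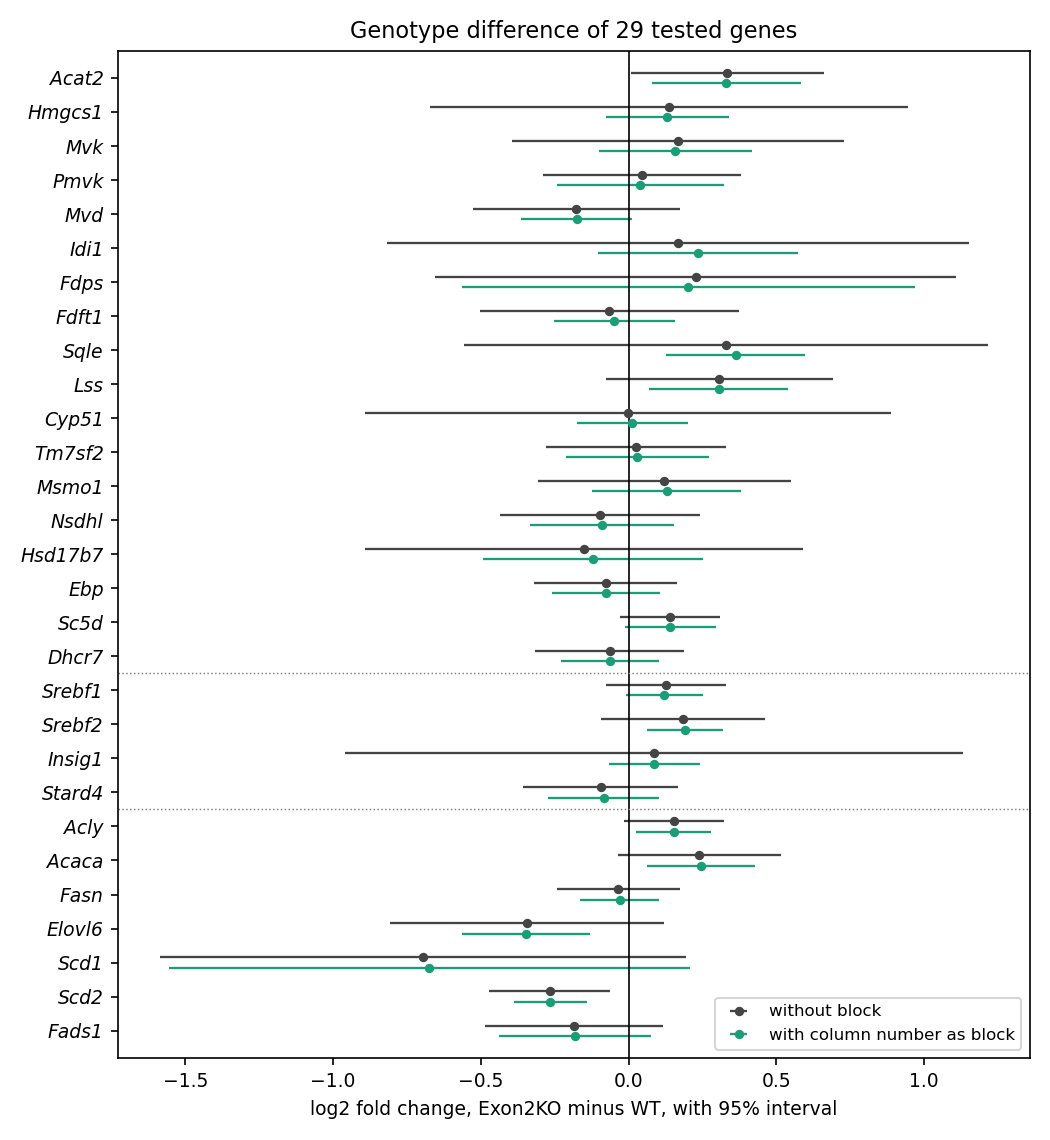
Log2 fold change (Exon2KO minus WT) of the 29 tested genes with its 95% interval, without a block (grey) and with the column number as a block (green); dotted lines separate sterol enzymes, regulators and fatty acid genes. Every grey interval but those of Acat2 and Scd2 spans 0, and the green intervals are narrower for most genes while the centres move little.

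Among the 18 mevalonate and sterol enzymes none was called with or without the block (edgeR), 11 had a log2 difference above 0 and 7 below, and the median was 0.08. At an unadjusted p under 0.05 there was 1 of 18 without the block (Acat2), beside 12.1% of all tested genes, and 3 of 18 with it, beside 21.5%. The early cytosolic thiolase gene Acat2, whose product joins acetyl-CoA units, had 12.7, 15.9 and 14.4 CPM in WT 2, 6 and 20 and 18.5, 20.1 and 15.7 CPM in the same-numbered Exon2KO libraries. It was higher in Exon2KO in each of the 3 same-numbered pairs, but Exon2KO 20 lay below WT 6, so the groups overlapped. Its log2 difference was 0.33 (SE 0.15, adjusted p = 0.394), and 0.33 (SE 0.12, adjusted p = 0.0969) with the block.

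Sqle, the epoxidase that commits squalene to sterols, had 14.6, 10.5 and 24.6 CPM in WT 2, 6 and 20 and 20.7, 14.3 and 27.7 CPM in Exon2KO. Each Exon2KO library exceeded the WT library of its number, while both genotypes spread about as widely between numbers. The log2 difference was 0.33 (SE 0.37, adjusted p = 0.846) without the block and 0.36 (SE 0.11, adjusted p = 0.0504) with it. With 1 library left out and no block it ran from 0.068 to 0.73. Lss, which closes the first sterol ring system, had a log2 difference of 0.31 (SE 0.17, adjusted p = 0.571), or 0.30 (SE 0.11, adjusted p = 0.103) with the block. Sc5d, a late sterol desaturase, was the only sterol enzyme whose groups did not overlap: 43.6 to 45.2 CPM in WT and 48.4 to 49.4 CPM in Exon2KO, a log2 difference of 0.14 (SE 0.08, adjusted p = 0.55).

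Over all 29 genes the groups did not overlap for Sc5d and Acly (higher in Exon2KO) and for Scd2 (lower). This is 2 of 29 higher and 1 of 29 lower, beside 8.35% and 9.32% of all tested genes. Exon2KO was higher in all 3 same-numbered pairs for 10 of 29 genes, where 21.4% of all tested genes were, and lower in all 3 for 5 of 29, where 20.9% were. The 10 were Acat2, Mvk, Sqle, Lss and Sc5d of the sterol enzymes, Srebf1, Srebf2 and Insig1 of the regulators, and Acly and Acaca of the fatty acid genes. The 5 were Mvd, Dhcr7, Elovl6, Scd1 and Scd2.

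None of the 4 genes of the regulator group was called in either fit, beside 2.33% of all tested genes without the block and 9.72% with it. At an unadjusted p under 0.05 there was none without the block, beside 12.1% of all tested genes. With the block there was 1 (Srebf2), beside 21.5%. Srebf2 had 281, 239 and 325 CPM in WT 2, 6 and 20 and 321, 284 and 355 CPM in Exon2KO. The groups overlapped, and each Exon2KO library was above its WT counterpart. Its log2 difference was 0.18 (SE 0.12, adjusted p = 0.673), and 0.19 (SE 0.06, adjusted p = 0.0609) with the block. Srebf1 differed by 0.13 (SE 0.09, adjusted p = 0.707). Insig1 differed by 0.09 with a wide error (SE 0.41, adjusted p = 0.975), which shrank with the block (0.09, SE 0.07, adjusted p = 0.555). Stard4, which carries sterol between membranes, differed by -0.09 (SE 0.12, adjusted p = 0.866).

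The 7 tested fatty acid genes had a median log2 difference of -0.18, with 2 above 0 and 5 below, and none was called without the block; at an unadjusted p under 0.05 there was 1 (Scd2), beside 12.1% of all tested genes. With the block, 2 of the 7 fell (Scd2 and Elovl6), beside 5.79% of all tested genes. At an unadjusted p under 0.05 the blocked fit had 4 of 7, beside 21.5% of all tested genes. They were Scd2 and Elovl6 (lower) and Acly and Acaca (higher). Scd2 (chr19:44293674-44306864, + strand, GRCm38) had 165, 181 and 199.5 CPM in WT 2, 6 and 20 and 139, 156 and 159 CPM in Exon2KO. The highest Exon2KO library was below the lowest WT library. The log2 difference was -0.27 (SE 0.09, adjusted p = 0.232), and -0.26 (SE 0.06, adjusted p = 0.00795) with the block. Without both libraries numbered 20 the blocked adjusted p was 0.0652, without both numbered 2 it was 0.168, and without both numbered 6 it was 0.00704.

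Elovl6 (chr3:129532355-129638495, + strand, GRCm38), which lengthens palmitate to stearate, had 19.1, 18.6 and 26.9 CPM in WT 2, 6 and 20 and 15.1, 14.1 and 21.7 CPM in Exon2KO. Each Exon2KO library was below the WT library of its number, but Exon2KO 20 was above WT 2 and WT 6. The log2 difference was -0.34 (SE 0.20, adjusted p = 0.608), and -0.35 (SE 0.10, adjusted p = 0.0438) with the block. With 1 library left out and no block it ran from -0.57 to -0.15. The blocked call was lost when both libraries of any number were left out (adjusted p from 0.122 to 0.25). Both called genes act on the product of Fasn, by elongation or desaturation.

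The genes that act before them, Acly, Acaca and Fasn, were not called in either fit. Acly had 274, 257 and 277 CPM in WT 2, 6 and 20 and 317, 284 and 298 CPM in Exon2KO, without overlap. Its log2 difference of 0.15 (SE 0.08) did not pass the test (adjusted p = 0.487, and 0.134 with the block). Acaca, which makes malonyl-CoA, differed by 0.24 (SE 0.12, adjusted p = 0.515, and 0.092 with the block), and Fasn by -0.03 (SE 0.09, adjusted p = 0.954). Scd1 had the largest difference of the 29, -0.70 (SE 0.40, adjusted p = 0.586), on 11 to 30 counts per library. The Δ5-desaturase gene Fads1 differed by -0.18 (SE 0.13, adjusted p = 0.713).

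**Figure D3:**
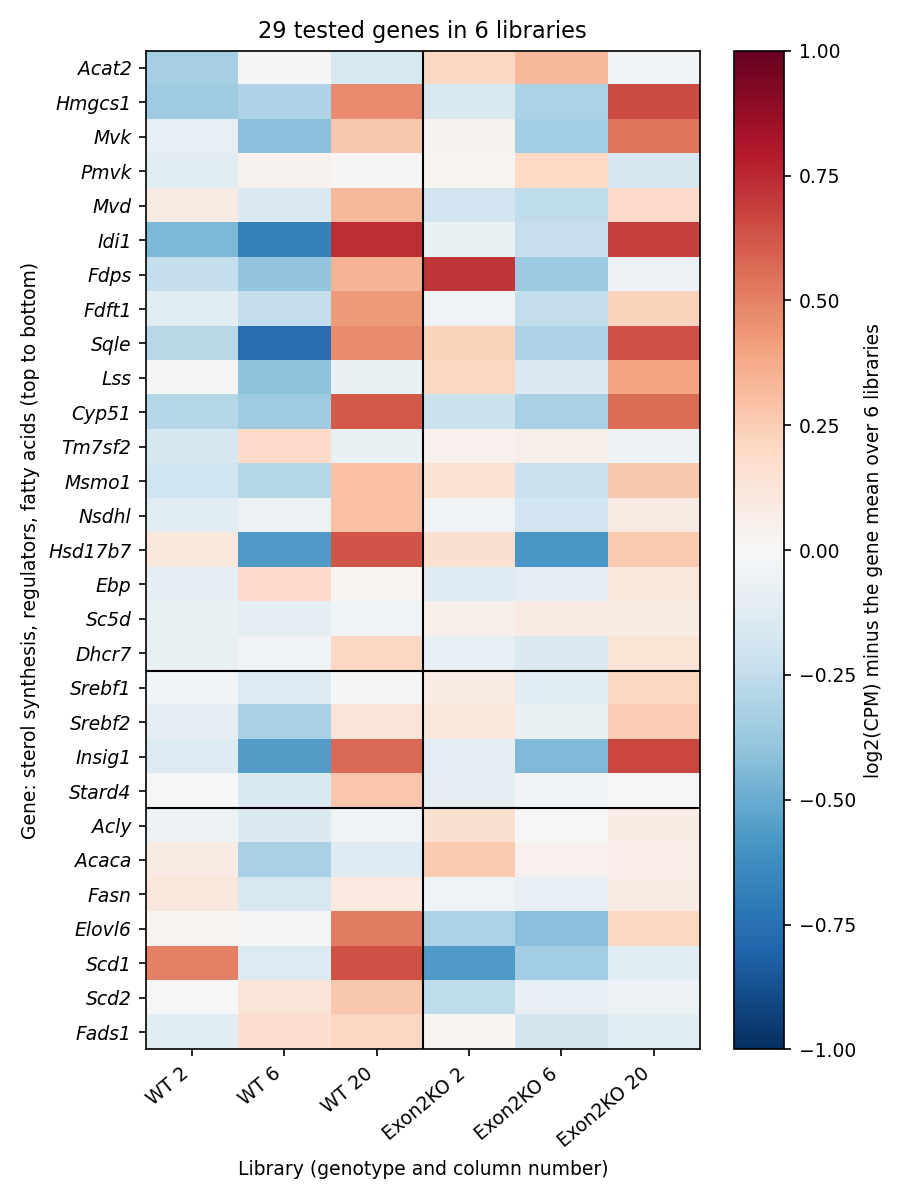
Heat map of log2 CPM of each tested gene minus its mean over the 6 libraries, from blue (lower) to red (higher), with sterol enzymes, regulators and fatty acid genes from top to bottom and WT left of the vertical line. The columns WT 20 and Exon2KO 20 are red for most sterol enzymes, and the row of Scd2 is redder in WT than in Exon2KO.

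More of these genes were called between column numbers than between genotypes. A test of the number in the fit that also holds genotype, added after the data were seen, called 11 of the 29 genes, where 10.4% of all tested genes were called (1559 genes, edgeR quasi-likelihood test). They were 8 of the 18 sterol enzymes (Hmgcs1, Mvk, Mvd, Idi1, Fdft1, Sqle, Cyp51 and Hsd17b7), 2 of the 4 regulators (Srebf2 and Insig1) and 1 of the 7 fatty acid genes (Elovl6). For 21 of the 29 genes the library numbered 20 was above the mean of those numbered 2 and 6 in both genotypes, which held for 32.3% of all tested genes. The labels give no meaning to the number, so what differed between the libraries cannot be told from them.

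Insig1 had 40.8, 30.6 and 66.4 CPM in WT 2, 6 and 20 and 42.1, 33.0 and 71.5 CPM in Exon2KO. The library numbered 20 was 1.86 times the mean of the other two in WT and 1.90 times in Exon2KO (adjusted p = 2.09e-06 for the number, edgeR). The order of the numbers, 20 above 2 above 6, was the same in both genotypes. Cyp51, which removes a methyl group from lanosterol, had 23.5, 22.4 and 43.9 CPM in WT and 24.7, 22.9 and 42.3 CPM in Exon2KO (1.92 and 1.78 times, adjusted p = 3.21e-05). Hmgcs1, which makes HMG-CoA, had 17.2, 17.7 and 30.6 CPM in WT and 19.8, 17.7 and 34.7 CPM in Exon2KO (1.75 and 1.85 times, adjusted p = 0.000143). For these genes the libraries numbered 20 lay above the other 4, and the WT and Exon2KO values of a number lay close together.

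Idi1, which isomerises isopentenyl diphosphate, had 6.07, 5.18 and 13.8 CPM in WT 2, 6 and 20 and 7.89, 7.03 and 13.3 CPM in Exon2KO (2.45 and 1.78 times, adjusted p = 0.00128). For Sqle the libraries numbered 20 were 1.96 and 1.59 times the mean of the others (adjusted p = 0.00021). The other called genes had ratios between 1.17 (Srebf2 in Exon2KO) and 1.76 (Hsd17b7 in WT). Genes of the same pathway without such a difference included Sc5d, with ratios of 1.03 and 1.01 (adjusted p = 0.977), and Acly, with 1.04 and 0.994 (adjusted p = 0.47). Fatty acid genes as a whole had a median log2 ratio of 0.17 in WT and 0.11 in Exon2KO, the sterol enzymes 0.44 and 0.33.

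The count rested on the libraries numbered 20. Without both of them, 0 of 29 genes were called for the number (8 at an unadjusted p under 0.05; 1.43% of all tested genes called and 14.6% at an unadjusted p under 0.05, edgeR). Without both numbered 2 it was 6 (3.45% of all tested genes), and without both numbered 6 it was 8 (9.54%). With 1 library left out it lay between 4 (without WT 2; 1.92%) and 9, with 5 without WT 20 (7.61%) and 5 without Exon2KO 2 (3.51%), so the share of all genes called fell as well. DESeq2's likelihood ratio test called 9 of 29 (7.47% of all tested genes) and limma-voom 11 (10.5%).

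**Figure D4:**
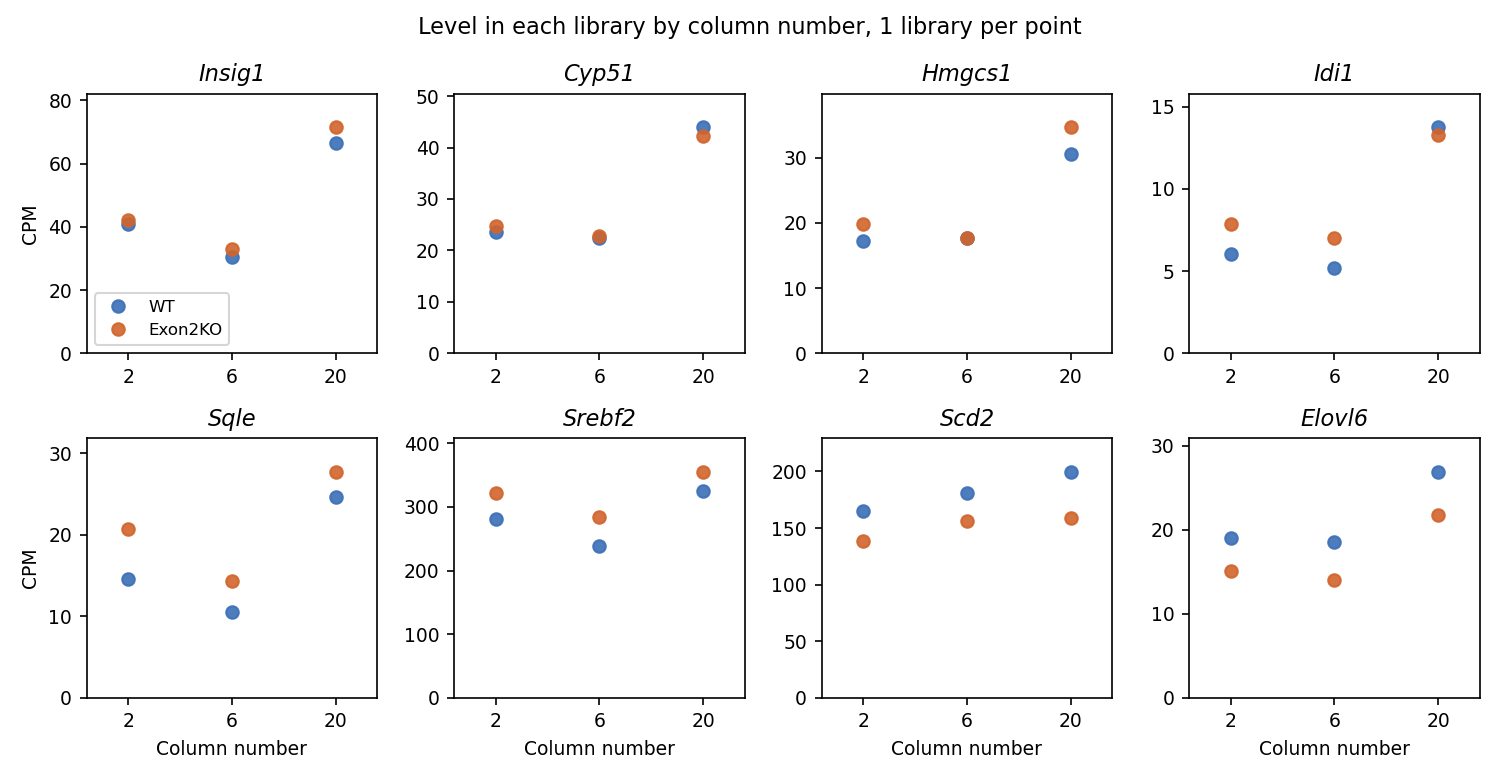
CPM (axes from 0) of 8 genes by column number, with 1 point per library in blue for WT and orange for Exon2KO. Insig1, Cyp51, Hmgcs1, Idi1 and Sqle are highest in the libraries numbered 20 in both genotypes, while for Scd2 every Exon2KO point lies below every WT point.

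Promoters are shown for 4 genes called for the number with ratios among the highest, because these genes moved together across libraries. They come from RefSeq (GRCm38.p6), run from 250 bases before to 50 bases after the annotated start, and are written on the gene's strand. Capitals mark each CCAAT box, the NF-Y motif, in either orientation (ATTGG on the other strand), and the sterol regulatory element form TCACNCCAC. Insig1 lies at chr5:28071162-28071461 (+), Cyp51 at chr5:4104648-4104947 (-), Hmgcs1 at chr13:119690101-119690400 (+) and Idi1 at chr13:8885356-8885655 (+).
Insig1: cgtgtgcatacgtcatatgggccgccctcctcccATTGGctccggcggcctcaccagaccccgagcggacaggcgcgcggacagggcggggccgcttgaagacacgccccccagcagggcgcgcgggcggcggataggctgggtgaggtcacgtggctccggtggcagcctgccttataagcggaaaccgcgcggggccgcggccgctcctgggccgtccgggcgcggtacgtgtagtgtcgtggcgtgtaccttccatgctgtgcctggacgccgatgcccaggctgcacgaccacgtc
Cyp51: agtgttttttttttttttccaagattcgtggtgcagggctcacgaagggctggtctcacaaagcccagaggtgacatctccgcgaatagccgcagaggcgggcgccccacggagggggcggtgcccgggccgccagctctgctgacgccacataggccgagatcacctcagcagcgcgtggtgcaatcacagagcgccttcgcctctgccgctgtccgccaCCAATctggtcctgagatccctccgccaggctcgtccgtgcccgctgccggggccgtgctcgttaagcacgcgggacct
Hmgcs1: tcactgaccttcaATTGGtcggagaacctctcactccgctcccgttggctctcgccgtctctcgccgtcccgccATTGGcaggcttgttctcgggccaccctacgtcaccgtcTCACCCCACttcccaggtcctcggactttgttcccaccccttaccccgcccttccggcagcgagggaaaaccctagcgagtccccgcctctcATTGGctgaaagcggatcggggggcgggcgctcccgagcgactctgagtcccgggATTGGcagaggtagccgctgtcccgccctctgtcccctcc
Idi1: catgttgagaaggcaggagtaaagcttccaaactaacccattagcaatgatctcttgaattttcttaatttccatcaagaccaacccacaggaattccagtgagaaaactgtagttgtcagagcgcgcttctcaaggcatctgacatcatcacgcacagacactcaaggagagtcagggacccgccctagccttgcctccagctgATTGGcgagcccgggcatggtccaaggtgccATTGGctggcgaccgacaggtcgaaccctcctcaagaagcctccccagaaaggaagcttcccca

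CCAAT was present in 20 of the 28 RefSeq promoters of the 23 matched genes (71.4%), on either strand, and in 37.4% of the 32851 promoters of all genes. Hmgcs1 had 4 such boxes, Idi1 had 2, and Insig1 and Cyp51 had 1 each. TCACNCCAC was present in 1 of the 28 (3.57%; 1.24% of all promoters), that of Hmgcs1, from base -137 to base -129 before the start. Only this spelling of the element was searched, so a promoter without a match may still hold another form. The E-box CACGTG, not capitalised above, was present in 4 of the 28 (14.3%; 7.15% of all): Hsd17b7, Insig1, Dhcr7 and Sc5d. All motifs were searched on both strands, and no CACGTG or TCACNCCAC match shared bases with a CCAAT match. These are letter matches in a fixed window and do not show that a factor bound. The promoters of Scd2, Sqle, Fdft1, Fdps, Stard4, Fads1 and Scd1 were not matched.

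Markers of dividing cells moved with the column number as well. Of 10 proliferation genes, 9 were called for the number, beside 10.4% of all tested genes, and all 10 were higher in the library numbered 20 than in the mean of the others in both genotypes, beside 32.3%. Their summed level was 742, 799 and 1355 CPM in WT 2, 6 and 20 and 661, 725 and 1044 CPM in Exon2KO. Mki67, a marker of cycling cells, had 139.9, 148 and 332 CPM in WT and 115, 127 and 208 CPM in Exon2KO. Markers of other blood cells moved too: the 7 myeloid markers summed to 45.0 and 41.8 CPM in the libraries numbered 20 and to between 25.2 and 30.3 CPM in the others, and the 6 erythroid markers to 5.91 and 3.49 CPM against 8.61 to 17.6 CPM. Of the 6 tested myeloid markers 1 was called for the number, Lyz2, which carried most of the difference in their sum (28.5 and 23.1 CPM against 9.78 to 16.1 CPM), while Cd68 had a ratio of 0.79 in WT and 0.983 in Exon2KO. Of the 3 tested erythroid markers 2 were called. Also called for the number were 3 of the 8 T cell and Treg markers (Foxp3, Ikzf2 and Ctla4) and 1 of the 6 CD8 T and NK cell markers (Cd8a). None of the 6 B cell markers or the 3 tested stromal and endothelial markers was. The part of any of these in the differences between numbers was not tested. In bulk RNA, a change in the share of cells of a kind cannot be told apart from a change of RNA per cell.

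Proliferation markers also moved with genotype in the blocked fit, in which 4 of 10 fell in Exon2KO (Mki67, Top2a, Ccnb1 and Birc5), beside 5.79% of all tested genes, and none rose. Without the block 0 of 10 were called, and 0 of 10 had an unadjusted p under 0.05 (edgeR), beside 2.33% and 12.1% of all tested genes. Beside the falls of Scd2 and Elovl6, the part of this difference was not tested. Median log2 differences within same-numbered pairs were 0.12, 0.03 and -0.02 over the 29 genes for numbers 2, 6 and 20, with 21, 18 and 13 genes higher in Exon2KO. For the 7 fatty acid genes they were -0.16, -0.20 and -0.31.

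Other genes of lipid metabolism were taken from 5 lists of 74 genes, of which 67 were tested. In the fit of genotype alone 1 of 67 was called, beside 2.33% of all tested genes (1.58% lower in Exon2KO), a share near that of these lists. It was Hacd3, a dehydratase of very long chain fatty acid elongation. Hacd3 had 112, 126 and 119 CPM in WT 2, 6 and 20 and 83.0, 89.6 and 64.9 CPM in Exon2KO, without overlap, and fell by 0.59 on the log2 scale (SE 0.12, adjusted p = 0.0347, edgeR). The call was lost without WT 2, WT 6, WT 20 or Exon2KO 2 (adjusted p from 0.0884 to 0.14), while the log2 difference stayed between -0.70 and -0.47 with any 1 library left out. It held in the blocked fit (-0.60, SE 0.08, adjusted p = 0.000385).

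In the blocked fit 8 of the 67 were called, 4 in each direction, beside 9.72% of all tested genes. Those that rose included Mylip, a ubiquitin ligase gene (0.38, SE 0.07, adjusted p = 0.00147), and Acss2 and Acss1, which make acetyl-CoA from acetate (0.37, SE 0.08, adjusted p = 0.00524 and 0.23, SE 0.07, adjusted p = 0.0479). The 4 that fell were Hacd3, Dgat2, the last enzyme of triglyceride synthesis (-1.73, SE 0.23, adjusted p = 0.000145), the fatty acid carrier gene Fabp5 (-0.61, SE 0.12, adjusted p = 0.00318) and Soat1, which esterifies cholesterol for storage (-0.30, SE 0.07, adjusted p = 0.0132). Without the block, Dgat2 had an adjusted p of 0.055 and Acss2 one of 0.0606. DESeq2 called both (adjusted p = 0.000502 and 0.0205). Soat1, Fabp5, Mylip and Acss1 were further from the threshold without the block (adjusted p = 0.155, 0.272, 0.502 and 0.546), and DESeq2 did not call them (0.144, 0.127, 0.319 and 0.628). Dgat2 was at 7.14, 6.17 and 8.92 CPM in WT 2, 6 and 20 and 1.89, 1.33 and 3.83 CPM in Exon2KO, so the groups lay well apart at a low level.

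By list, the 12 sterol branch and sterol sensing genes, the 12 tested isoprenoid genes and the 10 tested fatty acid oxidation genes had none called in either fit (edgeR). At an unadjusted p under 0.05 without the block there were 0, 0 and 1 of them, beside 12.1% of all tested genes. Of the 13 tested uptake, storage and export genes 2 rose and 1 fell with the block, and of the 20 tested fatty acid supply and esterification genes 2 rose and 3 fell. In the blocked fit 3.93% of all tested genes rose and 5.79% fell. Over the 5 lists 10 of 67 genes were called for the number, beside 10.4% of all tested genes.

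Some of the 30 genes share sequence with others, which bears on what a count holds. Fdft1 overlaps Ctsb, Cyp51 overlaps Akap9 and Srebf1 overlaps Rai1 on the opposite strand, and Tm7sf2 overlaps Vps51 on the same strand. Each of these neighbours had more counts than the gene it overlaps. Whether strand was used in counting is not given in the sources used here, so reads of such pairs cannot be assigned with certainty. Akap9 did not share the pattern of Cyp51: its library numbered 20 was 1.02 times the mean of the others in WT and 0.955 times in Exon2KO. These ratios were 1.03 and 0.849 for Ctsb (Fdft1 1.525 and 1.28) and 0.851 and 0.925 for Vps51 (Tm7sf2 0.94 and 0.931). Rai1 lay closer to Srebf1, with ratios of 0.993 and 1.14 (Srebf1 1.04 and 1.17). Their log2 differences between genotypes were 0.15 (Rai1) and 0.13 (Srebf1). Acaca matched Gm5182 at 99.2% over 6118 bases, Acat2 (1834 counts over the 6 libraries) matched Acat3 (69 counts) at 97.7% over 1477 bases and Tcp1 (18669 counts) at 98.7% over 445 bases, and Scd2 matched Scd1 at 95.5% over 623 bases. Levels of Acaca, Acat2 and Scd1 are uncertain to that extent. Fdps, with 180 counts over 6 libraries, shares 143 bases or more with 6 other genes, so its low level is uncertain too.

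In the authors' deposited table, all 30 genes had a comparison of Exon2KO with WT and none had an adjusted p under 0.05 (lowest 0.234). Over all genes, 638 of the 24985 compared there passed that threshold. Log2 fold changes of the 30 genes in the authors' deposited table ran from -0.70 to 0.34.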

How the data were processed

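RNA of 6 libraries (3 WT, 3 Exon2KO) was analysed. The authors deposited 1 table with a raw count per gene and library, per the file headers. Its 6 FPKM columns were not used, and levels per length were computed from the counts and the listed gene length instead. It also holds the authors' own log2 fold change and p-value, per the file headers, quoted only where named. The authors' group means, a scaled count signal per the file headers, were not used. The submitters' processing notes list HISAT2 2.0.5, StringTie 1.3.3b, featureCounts 1.5.0-p3, DESeq2 1.16.1 and mm10, without roles. The annotation release, the strand setting and the handling of reads that match several genes are not given in the sources used here. All 30 members' positions equal those of GENCODE M21 (GRCm38).

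Columns name a genotype and a number that no sample title holds, so they were tied to a group but not to a titled sample. Same-numbered columns were taken as pairs from the column names alone. All 3 correlations of deviations exceeded 0.1 (0.33, 0.41 and 0.54). An effect shared by the libraries numbered 20 alone would also make those for 2 and 6 positive, so this check cannot establish the pairing.

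Counts were tested with edgeR 4.0.16 in R 4.3.3 (filterByExpr, TMM, robust quasi-likelihood fit, two-sided, Benjamini-Hochberg over 14919 genes, called at adjusted p under 0.05), on genotype without a block, and with the number as a block. The SE of a log2 difference is its size over the square root of the F statistic. Other settings were RLE and upper-quartile scaling, DESeq2 1.42.0, limma-voom (limma 3.58.1), no filter, at least 10 counts in every library, and leaving out single libraries or both libraries of a number. The script was tested on simulated counts. CPM uses TMM-scaled totals. Transcripts were compared by megablast (at least 95% identity over 100 bases). Per-library values are given for members called in either fit, for abundant members and for others chosen after their values were seen (those with an unadjusted p under 0.05 or a blocked adjusted p near the threshold, those that illustrate the column number, and Fads2, which was not tested). Of the other lists, genes called in either fit are named, except for an item that is not reported here. Members and lists were chosen with earlier results of these data known. No pair of libraries of a genotype agreed within sampling noise (chi-square per degree of freedom 8.12 to 23.6). Counting floors cover counting error only.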

Additional observations from a re-analysis of the deposited data

How the results depend on the processing

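The number of genes called over the whole table depended on the setting. It was 348 without a block and 667 with DESeq2, 617 with no filter, 1450 with the replicate block on the column number, 900 with the block and without both libraries numbered 20, 277 with the block and without both numbered 2, 1441 with the block and without both numbered 6, and 86 to 314 with 1 library left out; it was 131 without WT 2, 156 without WT 6, 204 without WT 20 and 86 without Exon2KO 2. The count of these genes called was 2 with the block and 1 (Scd2) with the block and without both libraries numbered 6, and 0 under the other settings, including each library left out (edgeR, DESeq2 or limma-voom; 0 to 7 at an unadjusted p under 0.05). The count called for the column number was 6 without both libraries numbered 2 (3.45% of all tested genes), 0 without both numbered 20 (1.43%) and 4 to 9 with 1 library left out (1.92% to 10.4%). The block changed no other call of these genes. A block on the replicate numbers of the sample titles could not be fitted, because the columns carry other numbers.

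Of 493 log2 differences of the 29 genes under 17 settings, 448 kept their sign and side of the threshold, 3 passed it (Scd2 and Elovl6) and 42, in 15 genes, changed sign. None of those that changed sign had been called. Cyp51 was at 0.00016 with DESeq2, 0.013 with the block and 0.052 without both libraries numbered 20, with or without the block. Without both numbered 20, Fdft1 was at 0.039, Hsd17b7 at 0.020 and Stard4 at 0.011, and with the block as well at 0.038, 0.018 and 0.013. Without both numbered 6 and with the block, Ebp was at 0.027 and Pmvk at -0.030. Without both numbered 2 and with the block, Fasn was at 0.033, Fdps at -0.20, Pmvk at -0.0050 and Tm7sf2 at -0.060. With 1 library left out the ranges were -0.34 to 0.38 (Cyp51), -0.20 to 0.17 (Fdft1), -0.40 to 0.18 (Hsd17b7), -0.18 to 0.034 (Stard4), -0.16 to 0.0058 (Ebp), -0.12 to 0.0094 (Fasn), -0.15 to 0.48 (Fdps), -0.058 to 0.13 (Pmvk), -0.054 to 0.14 (Tm7sf2), -0.16 to 0.027 (Dhcr7), -0.22 to 0.46 (Hmgcs1), -0.17 to 0.74 (Idi1), -0.30 to 0.45 (Insig1), -0.098 to 0.36 (Mvk) and -0.17 to 0.038 (Nsdhl). Genes that kept their sign moved as well. Their ranges with 1 library left out included 0.17 to 0.43 (Lss), 0.081 to 0.30 (Srebf2), 0.044 to 0.19 (Srebf1) and 0.15 to 0.34 (Acaca). Those of Msmo1 and Mvd were 0.0093 to 0.32 and -0.33 to -0.050. The cause of these changes was not tested. Fads2, Scd1 and Fdps had 0 to 45 counts in a library, so counting error is largest for them; the part of depth in the wide intervals of Scd1 and Fdps was not tested.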
